A study of Mus musculus with 6 samples.

Results

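Casp1, the gene of caspase-1, was examined with 6 other inflammasome genes in bulk RNA from developing mouse molars. The 7 genes were Nlrp3, Pycard, Casp1, Casp4, Casp12, Il1b and Il18, taken by symbol from a table of 25899 genes, and all 7 were found. Casp1 was chosen by its measured level, which was higher in mutants, so its difference between genotypes is described here and not tested. The other 6 were added as genes of the same pathway. The tissue was the mesenchyme in the apical part of lower first molars at postnatal day 7.5. Mutants carried Gli1-CreER together with floxed alleles (fl/fl) of Bmpr1a, a receptor for bone morphogenetic proteins, and controls were Bmpr1a fl/fl littermates for which no Cre is listed. The CreER enzyme needs tamoxifen to work, and the Gli1 gene drives it, so cells that never made Gli1 keep the receptor. The tamoxifen schedule, and whether controls received it, are not stated in the sources used here. There were 3 libraries per genotype on a mixed C57Bl6/129S6/SvEvTac background. Controls 1 and 2 and mutants 1 and 2 came from litter 1, and control 3 and mutant 3 from litter 2. Nothing in the labels says whether a library came from 1 animal or a pool, so p-values measure only the spread between these libraries.

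An inflammasome is a protein complex that a cell builds when it senses infection or damage. A sensor such as NLRP3 recruits the adaptor ASC, encoded by Pycard, which gathers and activates caspase-1. Caspase-1 then cuts the precursors of interleukin-1β and interleukin-18 and the pore protein gasdermin D, which can end in a lytic form of cell death called pyroptosis. Macrophages and other myeloid cells are the best-known site of this pathway, and epithelial cells also make Il18 and several of its caspases.

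Levels are given in RPM, reads per 1000000, with no division by gene length, and the libraries held between 15916045 and 20609420 reads on genes. A change below is the mutant mean less the control mean of log2(RPM + 1), a scale that understates the change of low genes. Bmpr1a, the floxed gene, was at 121, 139 and 149.5 RPM in controls 1 to 3 and at 108, 120.2 and 111 RPM in mutants 1 to 3. All mutants were below all controls, by a change of -0.27 (SE 0.14, unadjusted p 0.091 by limma). Cells without Cre activity also add reads to this gene. Of 14444 genes averaging 1 RPM or more, 0 passed an adjusted p of 0.05 (limma, Benjamini-Hochberg). An unadjusted p under 0.05 was reached by 152 of them (1.05%; 0.36% higher and 0.692% lower in mutants), and by 2.02% when litter was a block. No result below therefore passes correction over all genes.

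Casp1 stood at 2.80, 2.13 and 1.48 RPM in controls 1, 2 and 3 and at 7.92, 4.06 and 5.36 RPM in mutants 1, 2 and 3. Every mutant library was above every control library, and the lowest mutant was 1.45 times the highest control. For each of the 6 other genes the groups overlapped. Across all tested genes the groups failed to overlap in 2.64%, with mutants higher in 0.976% and lower in 1.67%, and Casp1 was chosen from the first of these. Of the 7 genes, 5 reached the level for testing, and Nlrp3 and Il1b did not.

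**Figure D1:**
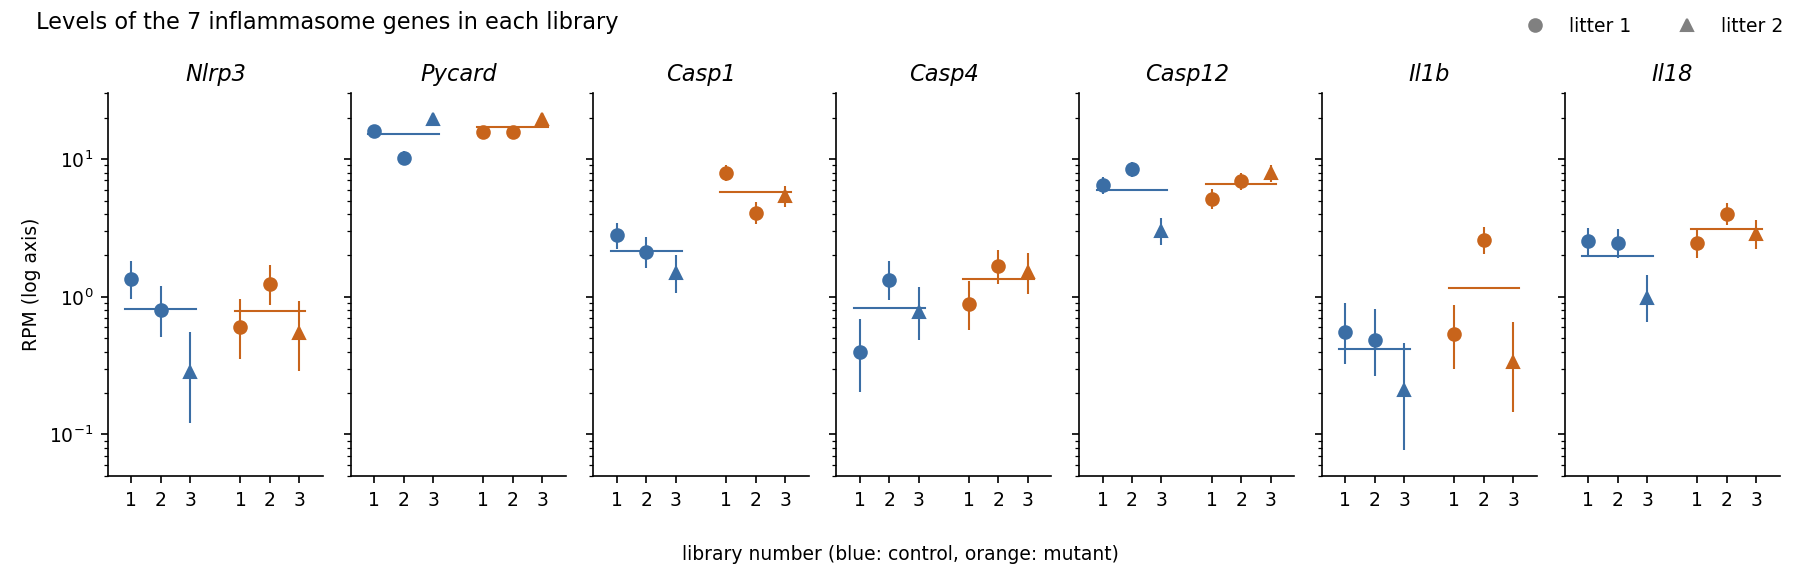
RPM on a log axis for the 7 inflammasome genes in control (blue) and mutant (orange) libraries, circles for litter 1 and triangles for litter 2, with exact 95% Poisson intervals for counting error and a line at each group mean. The Casp1 points separate by genotype, from 1.48 to 2.80 RPM in controls and from 4.06 to 7.92 RPM in mutants, while the points of the other 6 genes overlap.

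The mean Casp1 level was 2.14 ± 0.657 RPM for controls against 5.78 ± 1.97 RPM for mutants, a ratio of 2.70 (all ± values between genotypes are SD with n = 3). The log2 change was 1.09 (SE 0.28). It was 0.96 within litter 1 and 1.36 within litter 2, where each genotype has 1 library. Within litter 1 the mean of the mutants was 2.43 times that of the controls, and within litter 2 the mutant was 3.62 times the control. These levels rest on few reads, 85, 61 and 42 in controls and 223, 122 and 128 in mutants. Counting error alone allows 2.23 to 3.46 RPM in control 1, the highest control, and 3.37 to 4.85 RPM in mutant 2, the lowest mutant (exact 95% Poisson intervals, which cover counting error only). The interval of control 1 overlaps that of mutant 2 narrowly, and the intervals of mutants 1 and 3 lie above those of all controls. With each library left out in turn the change ran from 0.88 to 1.29.

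Casp1 lies on chromosome 9 of mm10 (GRCm38), at chr9:5298517-5307265 on the plus strand in GENCODE M21. It is followed on the same strand by Casp4, after 1562 bases, and by Casp12, after a further 8646 bases. Casp4 encodes caspase-11, which binds bacterial lipopolysaccharide inside the cell and cuts gasdermin D. Casp12 encodes a caspase of the same inflammatory family. The sequences before the start sites of these neighbouring genes are shown because the groups overlapped for Casp4 and Casp12 but not for Casp1 (RefSeq promoter table, GRCm38.p6, plus strand, 5′ to 3′, ending before the first annotated transcript base). Capitals mark matches to motifs of inflammatory signalling.
Casp1, chr9:5298267-5298516: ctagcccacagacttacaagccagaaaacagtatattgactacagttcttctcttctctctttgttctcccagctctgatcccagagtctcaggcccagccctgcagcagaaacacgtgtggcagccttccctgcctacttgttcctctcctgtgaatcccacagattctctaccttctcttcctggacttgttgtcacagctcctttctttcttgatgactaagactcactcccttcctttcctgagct
Casp4, chr9:5308599-5308827: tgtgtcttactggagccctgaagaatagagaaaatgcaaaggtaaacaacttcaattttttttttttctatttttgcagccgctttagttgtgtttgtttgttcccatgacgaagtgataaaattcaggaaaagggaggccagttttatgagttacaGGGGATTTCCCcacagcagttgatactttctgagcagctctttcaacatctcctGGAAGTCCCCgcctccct
Casp12, chr9:5345226-5345429: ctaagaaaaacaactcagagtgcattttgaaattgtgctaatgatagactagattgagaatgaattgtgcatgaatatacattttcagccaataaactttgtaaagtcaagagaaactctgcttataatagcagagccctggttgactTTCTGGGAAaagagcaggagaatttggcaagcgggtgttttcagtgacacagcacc

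3 motifs were searched on both strands in the 250 bases before each start site: the core of the interferon-stimulated response element, the interferon-gamma activated site TTCNNNGAA and the NF-kB consensus. They occur in 2.98%, 7.02% and 7.25% of all 32851 windows of that length in the table. The Casp1 window held no match to any of them, which says only that these letters are absent from this window. The Casp4 window held 3 matches to the NF-kB consensus, 2 of them overlapping by all but 1 base and starting 93 and 92 bases before the start site, and the other starting 39 bases before it. Casp12 held 2 matches to the interferon-gamma activated site, starting 102 and 36 bases before its start site. The second of these lies within an annotated transcript of the gene and is not printed. Of the other members, 1 of the 2 Nlrp3 windows held an NF-kB match, and those of Pycard, Il1b and Il18 held none. A match describes letters and is not a measured binding site.

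Casp4 was at 0.395, 1.33 and 0.777 RPM in controls against 0.888, 1.66 and 1.51 RPM in mutants. Control 1 was lowest and mutant 2 highest, and control 2 lay above mutant 1, so the groups overlapped. The change was 0.38 (SE 0.26, 95% interval -0.25 to 1.00, unadjusted p 0.197 by limma, adjusted p 1.00 by limma with Benjamini-Hochberg). As background, mice of 129 strains carry a Casp4 allele that makes no functional caspase-11. The parental origin of this locus in each library was not read here, and it may differ between animals of a mixed background.

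Casp12 was measured at 6.45, 8.43 and 3.0 RPM in controls against 5.15, 6.89 and 7.88 RPM in mutants. Control 3 stood lowest, and the other 5 libraries interleaved between genotypes. The change was 0.21 (SE 0.34, 95% interval -0.59 to 1.00, unadjusted p 0.561 by limma). It was -0.27 in litter 1 and 1.15 in litter 2. That difference between litters had an unadjusted p of 0.0167 and an adjusted p of 0.80 (limma, Benjamini-Hochberg), and 5.06% of all tested genes had such a p under 0.05. Without control 3 the change turned to -0.15.

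Other genes around Casp1 on chromosome 9 were compared, taking the 5 nearest genes in the table on each side. Of these 10, Ddi1 had no reads in any library, and the other 9, Casp4 and Casp12 included, all had overlapping groups. The changes of the other 7 ran from -0.16 for Pdgfd to 0.12 for Gria4, with an unadjusted p of 0.05 or less in 0 of them (limma). Gria4, a glutamate receptor subunit and the nearest of them before Casp1, was at 1.74, 3.43 and 2.54 RPM in controls against 2.52, 1.10 and 6.54 RPM in mutants. Mutant 3 was highest and mutant 2 lowest for Gria4.

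**Figure D2:**
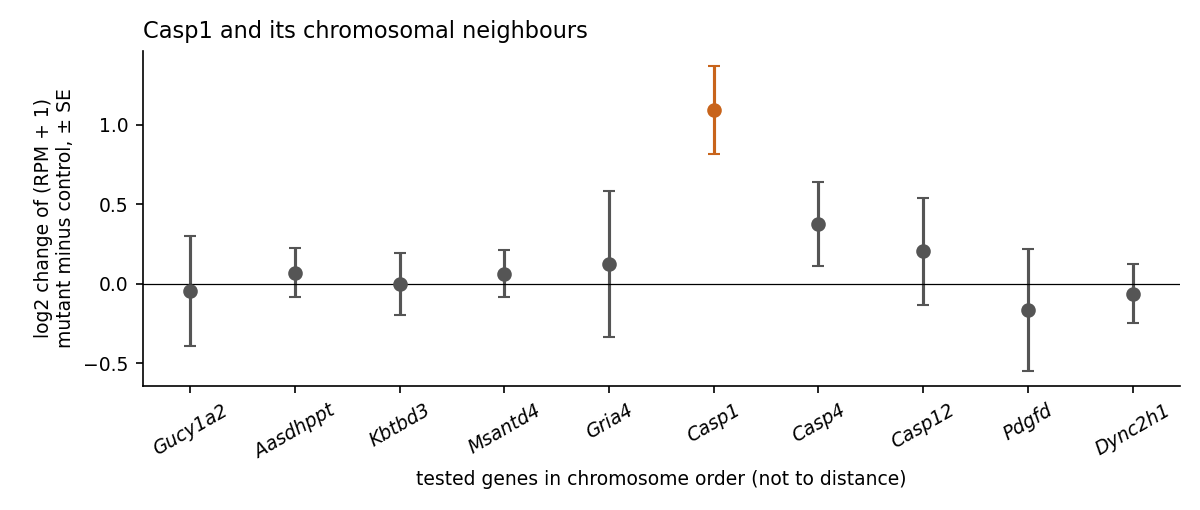
Log2 change of RPM + 1, mutant minus control, with its SE, for Casp1 (orange) and the tested neighbouring genes (grey) in chromosome order. Casp1 stands at 1.09, and the neighbours lie between -0.16 and 0.38.

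In GENCODE M21 the merged exons of Casp1 span 1497 bases, overlap no other gene, and share 0 of 1448 50-base words with transcripts of any other gene. Casp4 shared 0.24% of its words and Casp12 none. Pycard shared 11.7% of its words with the overlapping gene Gm45205 and with Mvp, so its level is less certain.

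Nlrp3, the sensor of the best-studied inflammasome, was at 1.35, 0.804 and 0.282 RPM in controls against 0.604, 1.23 and 0.545 RPM in mutants. Control 1 and mutant 2 were high, control 3 was low, and the groups overlapped fully. The group means were 0.812 ± 0.533 and 0.793 ± 0.380 RPM. Its mean fell under the 1 RPM needed for the test, and in the fit without that filter the change was 0.01 (95% interval -0.58 to 0.60, unadjusted p 0.98 by limma). The reads behind these levels numbered between 8 and 41 per library.

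Among 13 listed sensor genes only 3, Aim2, Nlrc4 and Naip2, reached the level for testing, and 0 had an unadjusted p under 0.05 (limma). AIM2 senses DNA in the cytosol, and NLRC4 with the NAIP proteins senses bacterial flagellin and secretion systems. Aim2 had the largest change of the 3, with 3.65, 1.75 and 1.34 RPM in controls against 4.33, 3.26 and 2.01 RPM in mutants. Its groups overlapped and the change was 0.40 (SE 0.33, unadjusted p 0.27). Nlrc4 was at 1.21 ± 0.768 and 1.5 ± 1.08 RPM and Naip2 at 1.19 ± 0.240 and 1.12 ± 0.301 RPM. Nlrp12 had reads in mutant 2 only, and Nlrp1a, Nlrp1b, Nlrp6, Nlrp10 and Mefv stayed at 0.497 RPM or less in every library. Nlrp10, at 0.0987, 0 and 0 RPM in controls against 0.107, 0.166 and 0.377 RPM in mutants, had an unadjusted p of 0.04 in the fit without a filter (limma), where 1.78% of genes had a p under 0.05. Its levels in control 1 and mutant 1 are both 3 reads, the smallest count treated as detectable, and differ only by library depth.

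Pycard, the adaptor, spanned 1.92-fold between libraries, the smallest span of the 7 genes. It was at 16.1, 10.2 and 19.6 RPM in controls against 15.7, 15.7 and 19.6 RPM in mutants. Control 2 alone was low, and both litter 2 libraries were high regardless of genotype. The change was 0.18 (SE 0.25, 95% interval -0.40 to 0.76, unadjusted p 0.481 by limma).

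Gsdmd, which encodes the pore protein gasdermin D, was at 12.4 ± 3.31 RPM in controls against 12.4 ± 4.84 RPM in mutants, a change of -0.02 (SE 0.30, unadjusted p 0.946 by limma). Casp8, which can replace caspase-1 in some settings, was at 19.0 ± 4.25 and 19.4 ± 4.35 RPM, and Ninj1, needed for the final rupture of the membrane, at 85.6 ± 25.3 and 90.0 ± 31.4 RPM. Of the 8 genes in the list of adaptor, caspases and pore proteins, all were tested, and 6 had a change above 0, with a median of 0.11. Without Casp1, which was chosen for its change, 5 of 7 were above 0 with a median of 0.05, beside 45.6% above 0 and a median of -0.01 over all tested genes. The median of the 8 turned to -0.12 without control 3.

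A list of other caspases, which also holds Casp8 and the gene of a caspase-8 binding protein, Casp8ap2, had 7 tested genes, 5 with a change above 0 and a median of 0.02, and 0 had an unadjusted p under 0.05 (limma). The median was below 0 in 5 alternatives, among them -0.16 without control 3.

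Il18, encoding a cytokine precursor that many cells hold ready in advance, was at 2.53, 2.45 and 0.989 RPM in controls against 2.45, 3.99 and 2.85 RPM in mutants. Control 3 was low and mutant 2 high, and the 4 others lay between 2.45 and 2.85 RPM. The groups overlapped between control 1 and mutant 1. The change was 0.48 (SE 0.29, 95% interval -0.20 to 1.16, unadjusted p 0.137 by limma, adjusted p 1.00 by limma with Benjamini-Hochberg), and it was 0.25 in litter 1 and 0.95 in litter 2.

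Il1b, whose transcript is made in myeloid cells after an inflammatory signal, was at 0.559, 0.490 and 0.212 RPM in controls against 0.533, 2.60 and 0.335 RPM in mutants. Mutant 2 alone was high, with 78 reads against 6 to 17 in the other libraries, and mutants 1 and 3 lay within the range of the controls. In the fit without a filter the change was 0.46 (SE 0.36, unadjusted p 0.247 by limma), and without mutant 2 it was 0.02. Of 10 neutrophil markers, 5 were also highest in mutant 2. Only 3 of the 10 reached the level for testing, and 2 of these were highest in mutant 2, against 19.5% of all tested genes. S100a9 was at 5.82 RPM in mutant 2 and between 0.953 and 2.72 RPM elsewhere, while Ngp was highest in mutant 3. The 10 neutrophil markers summed to 3.92 to 7.37 RPM in controls against 5.01 to 15.1 RPM in mutants, with Mpo and Elane at or near 0 throughout. The 15.1 RPM was that of mutant 2. Whether these cells have a part in the Il1b value was not tested.

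The other 10 genes listed for the interleukin-1 and interleukin-18 axis gave 3 tested, with 0 at an unadjusted p under 0.05 (limma). Il1rap, the shared receptor subunit, is named after its values were seen: it was at 18.7, 20.7 and 20.3 RPM in controls against 34.6, 19.9 and 28.9 RPM in mutants. Mutants 1 and 3 were above the controls and mutant 2 within them, a change of 0.43 (SE 0.21, unadjusted p 0.0793). The receptor gene Il1r1 stood at 19.3 ± 8.92 RPM in controls against 19.9 ± 8.36 RPM in mutants. Il1a, Il33 and the antagonist gene Il1rn were at 1.26 RPM or less in every library.

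Per length, the order of the 7 genes could be compared. Over 6 libraries Pycard was highest at 4.25 ± 0.908 RPM per kb of merged exon, then Casp1 (2.65 ± 1.60), Il18 (2.47 ± 0.933), Casp12 (1.64 ± 0.515), Il1b (0.413 ± 0.470), Casp4 (0.295 ± 0.131) and Nlrp3 (0.198 ± 0.102). Each range overlapped that of the next gene. Library by library, Il18 was above Casp12 in 6 of 6, but Casp1 was above Il18 in 3 of 6 and Il1b above Casp4 in 3 of 6. Casp1 per length was 1.43 ± 0.439 in controls, under the 1.93 ± 0.842 of Il18, and 3.86 ± 1.31 in mutants, above the 3.0 ± 0.776 of Il18. Casp1 has 1 annotated transcript, while the other genes have from 2 (Pycard) to 7 (Casp4). Merged exons are longer than most single transcripts, so these levels are approximate, and those of the other genes may be too low beside Casp1.

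Genes that set inflammasome activity or prime its parts were examined next. The list of regulators had 13 tested genes, 8 with a change above 0, a median of 0.11 and 0 with an unadjusted p under 0.05 (limma). Nek7, a kinase that NLRP3 needs, was at 60.4 ± 17.3 and 60.0 ± 7.06 RPM, and P2rx7, the receptor for extracellular ATP, at 11.1 ± 4.6 and 12.1 ± 5.28 RPM. Trim30a had the largest change of the list, 0.31 (SE 0.43, unadjusted p 0.487). The list of priming signals, Toll-like receptors and the NF-kB pathway, had 15 tested of 17, a median change of 0.02 and 0 with an unadjusted p under 0.05. Tlr4 had its largest change, 0.19 (SE 0.55). Without control 3 the medians of the regulator and priming lists turned to -0.17 and -0.098, and without mutant 2 to -0.095 and -0.067. Il6 had no reads in any library, and Tnf was at 0.26 RPM or less.

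The interferon response list, which holds regulators that can induce Casp1 and Casp4, had 16 tested of 18. Of these, 14 had a change above 0, with a median of 0.17, and 0 had an unadjusted p under 0.05 (limma). Over all tested genes 45.6% had a change above 0. The median turned to -0.23 without control 3 and to -0.088 without mutant 2, and it was 0.45 without control 2. Gbp3, a guanylate-binding protein, had the largest change: it was at 8.43, 12.4 and 1.59 RPM in controls against 7.96, 17.2 and 5.82 RPM in mutants. Control 3 was low and mutant 2 high, and the change of 0.59 (SE 0.64) had an unadjusted p of 0.388. Control 3 was the lowest library for 15 of the 16 genes, against 31% of all tested genes, and mutant 2 the highest for 11, against 19.5%.

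**Figure D3:**
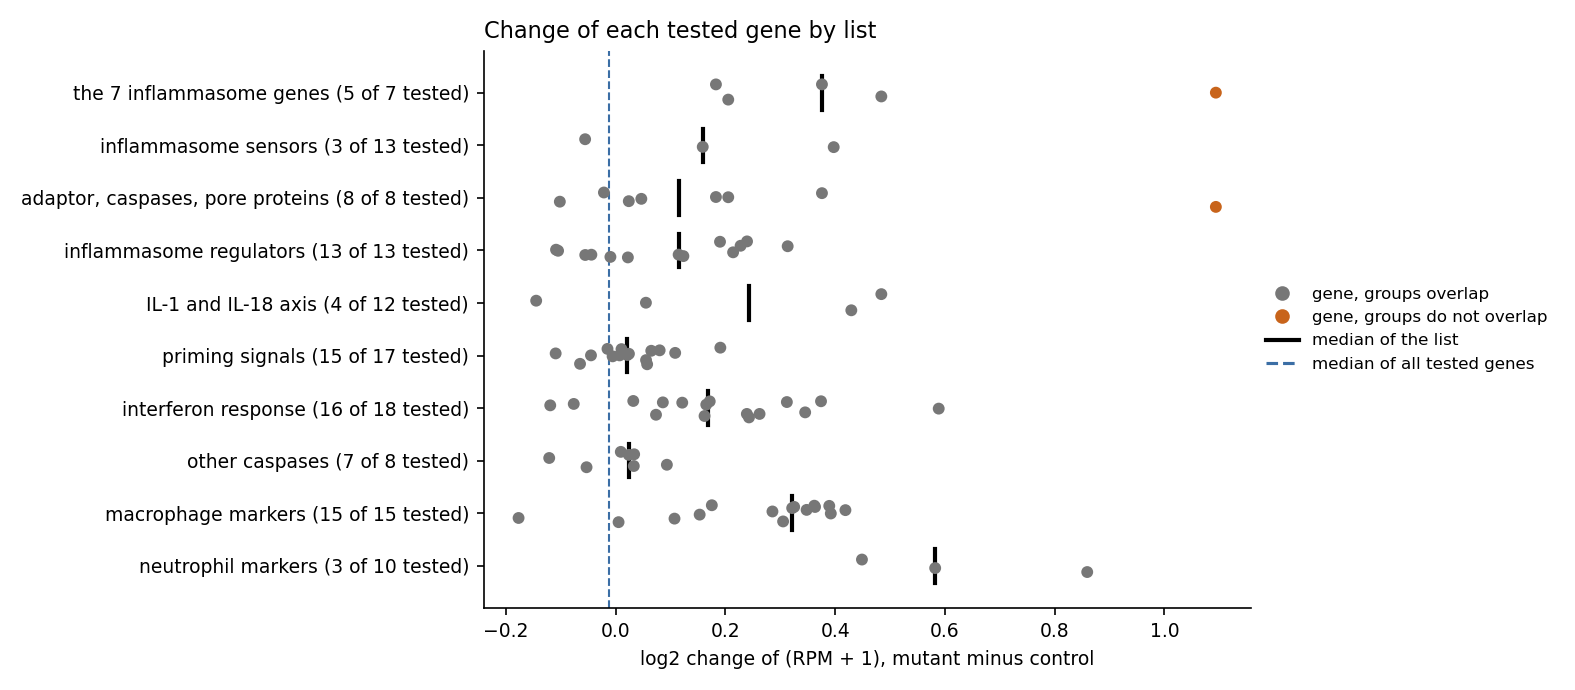
Log2 change of RPM + 1, mutant minus control, for each tested gene of 8 pathway lists and 2 marker lists, with the median of each list (black bar) and of all tested genes (dashed line). Casp1, at 1.09, is the orange point in the upper lists, and the genes of all the lists whose groups overlap lie between -0.18 and 0.86.

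The levels of macrophage markers varied between libraries. The 15 macrophage markers, among them Csf1r, Emr1 and the C1q genes, summed to 668, 786 and 279 RPM in controls against 500.2, 1060 and 486 RPM in mutants. All 15 were tested, 14 had a change above 0 with a median of 0.32, 0 had an unadjusted p under 0.05 (limma), and the groups overlapped in all. Control 3 was the lowest and mutant 2 the highest library for 13 of the 15, against 9.74% of all tested genes. In bulk tissue fewer cells of a type and less RNA per cell cannot be told apart.

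Control 3 was also the lowest and mutant 2 the highest library for Il18 and Il1b, while the 4 libraries between them came in other orders. For Nlrp3 control 3 was lowest and control 1 highest. Casp1 had control 3 lowest too, but mutant 1 highest. Mutants 1 and 3 had less macrophage signal than controls 1 and 2 and more Casp1. Mutant 3 had more of both than control 3 of the same litter (macrophage markers 486 against 279 RPM). Mutant 2 had more of both than every control. Without control 3 and mutant 2, a choice made after the data had been seen, the change of Il18 was 0.06 and that of Il1b -0.09. Leaving out their lowest control and highest mutant had to lower both. In these 4 libraries the change was -0.39 for Nlrp3, -0.18 for Casp12, 0.27 for Casp4 and 0.42 for Pycard. It was 1.13 for Casp1, whose direction is fixed by the choice of the gene.

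**Figure D4:**
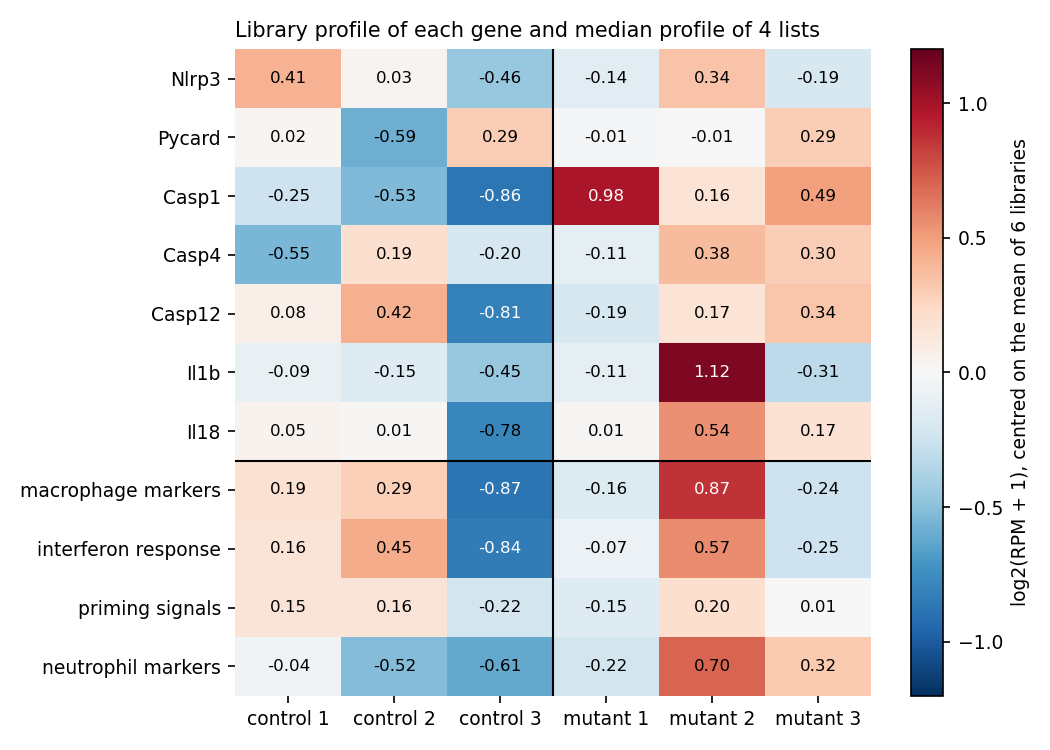
Log2(RPM + 1) centred on the mean of the 6 libraries for each of the 7 genes, and the median centred profile of 4 lists (below the line). The macrophage and interferon profiles are lowest in control 3 (-0.87 and -0.84) and highest in mutant 2 (0.87 and 0.57), as is Il18, whereas Casp1 is highest in mutant 1 (0.98).

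Casp1 was also set against the summed macrophage markers, which were highest in mutant 2. Dividing by that sum lowers mutant 2 most, so the order of the libraries in this ratio is described and is not a test. Casp1 amounted to 0.419%, 0.272% and 0.532% of the marker sum in controls and 1.58%, 0.383% and 1.10% in mutants. Mutants 1 and 3 lay above all controls and mutant 2, the library richest in these markers, lay among them. Nlrp3 by this measure was at 0.101% to 0.202% in controls and 0.112% to 0.121% in mutants, a span of 1.99-fold against 4.78-fold in RPM. The span also narrowed for Il18, Il1b and Casp12, and it widened for Casp1 (5.34 to 5.83), Casp4 (4.21 to 5.25) and Pycard (1.92 to 5.41). Il18 was at 0.312% to 0.380% in controls and 0.377% to 0.587% in mutants. The ratio was chosen after the data had been seen, and the part of macrophage content in the Casp1 difference was not tested.

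**Figure D5:**
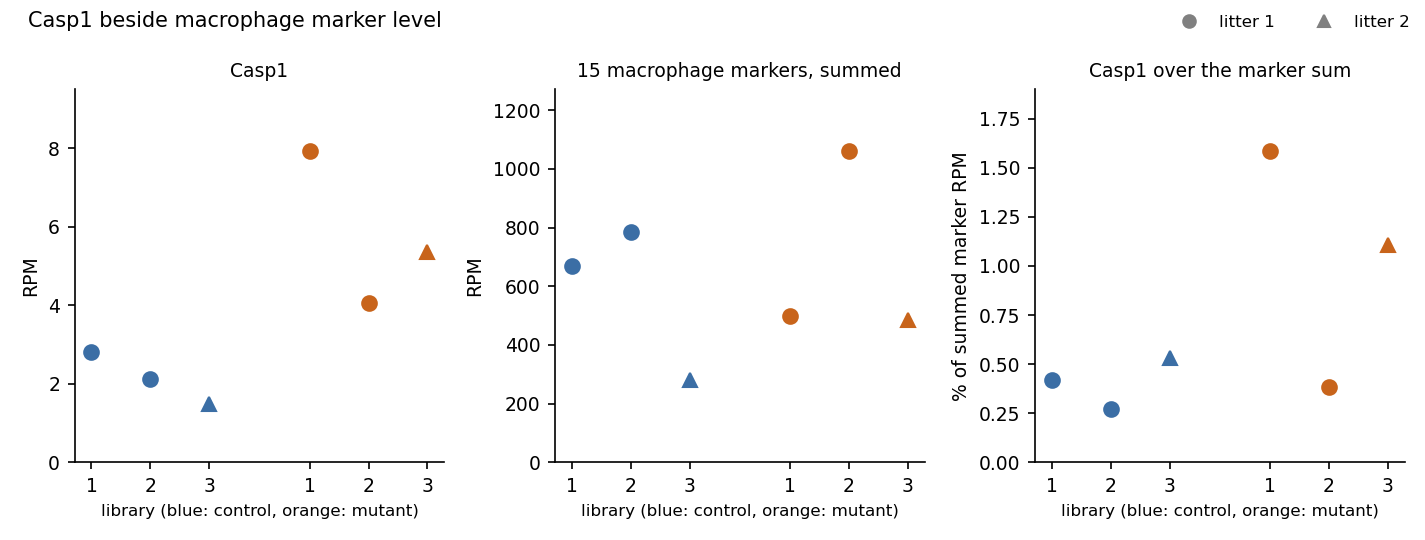
Casp1 in RPM, the summed RPM of 15 macrophage markers, and Casp1 as a percentage of that sum, in control (blue) and mutant (orange) libraries, circles for litter 1 and triangles for litter 2. Mutant 2 has the highest marker sum (1060 RPM), and its Casp1 share (0.383%) lies within the range of the controls.

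Markers of other cell types were measured in the same way. The 14 genes of dental mesenchyme and odontoblasts were detected in every library, from 5.33 RPM for Dmp1 in control 1 upward. Of these, 12 had a change below 0, with a median of -0.33. An unadjusted p under 0.05 was reached by 3, all lower in mutants (Lhx6, Lhx8 and Gli1; limma), and the groups of Lhx8 and Gli1 did not overlap. Over all tested genes 0.692% were lower with such a p, and 1.67% were lower without overlap. Gli1 is also the gene that drives CreER, and Gli1-CreER is listed for mutants only. Whether carrying Gli1-CreER has a part in the lower Gli1 level was not tested. Of 7 glia and nerve genes, 2 were lower in mutants with an unadjusted p under 0.05 (limma), S100b among them. The groups of S100b and Pmp22 did not overlap. These genes are named after their values were seen. The erythroid markers summed to 2524 RPM in control 3 and to between 230.1 and 774 RPM in the other libraries, and the endothelial markers to 351 to 454 RPM in controls against 289.7 to 423 RPM in mutants. The sum of 12 enamel epithelium genes spanned a 21.3-fold range. It was highest in mutant 1 (49734 RPM) and then control 3 (39334 RPM), the libraries with the highest and the lowest Casp1. Amelx and Ambn made up most of this sum, with 23480 and 18402 RPM in mutant 1. Amelx, Ambn, Enam, Mmp20, Amtn and Odam were highest in mutant 1. Krt14, Krt5, Krt15, Epcam and Cdh1 were highest in mutant 3, and Klk4 in control 3. Of these 12 genes, 11 had a change above 0, with a median of 1.11, beside 1.09 for Casp1. The groups overlapped for all 12, and 0 had an unadjusted p under 0.05 (limma). The 10 lymphocyte markers summed to 2.97 to 10.8 RPM in controls against 6.40 to 14.0 RPM in mutants, with the T cell genes Cd3e and Cd3d at 1 read or none and Cd3g and Cd8a at 0. Cd4 and Cd79b made up most of this sum. Cd4 was lowest in control 3 (0.989 RPM) and highest in mutant 2 (9.35 RPM), as were most macrophage markers. The 6 mast cell markers summed to 4.13 to 8.19 and 1.83 to 16.2 RPM. Osteoclast markers summed to 166 to 235 RPM in controls against 123 to 178 RPM in mutants. The 3 osteoclast genes that were tested all had a change below 0, with a median of -0.89, overlapping groups and 0 at an unadjusted p under 0.05 (limma). The part of these tissues in the Casp1 difference was not tested.

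The genes most like Casp1 over the 6 libraries were Tigd3, Cxcr7, Npl, Lhfpl1 and Rbm47. Likeness was the mean absolute difference of log2(RPM + 1), each gene centred on its own mean, over 14443 genes, and it was 0.19 for Tigd3 and 0.24 to 0.25 for the 4 others. Because Casp1 was chosen for its genotype difference, genes like it share that difference by construction, and it is not tested here. Tigd3 was at 2.83, 1.75 and 0.918 RPM in controls against 3.87, 2.96 and 4.19 RPM in mutants, so control 1 fell just under mutant 2. Cxcr7, a scavenging chemokine receptor, was at 50.7, 34.8 and 37.0 RPM in controls against 77.1, 44.4 and 70.5 RPM in mutants, with mutant 2 under control 1. Rbm47, encoding an RNA-binding protein, was at 2.21, 1.47 and 1.77 RPM in controls against 3.45, 2.76 and 3.48 RPM in mutants, without overlap. Of the 4 other members that were tested, Il18 came closest to Casp1, at rank 403 (0.43), followed by Casp12 at rank 518, Pycard at 1006 and Casp4 at 3562.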

How the data were processed

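Poly(A) RNA from 3 control and 3 mutant samples was read on a NextSeq 500, as the labels' protocols state. The submitters' processing notes name TopHat2 and mm10; the counting program and annotation are not given in the sources used here. The authors deposited 1 table, named as RPKM, that holds log2 values. As powers of 2, 99.99% of the values above the column minimum were whole multiples (within 0.1) of 1 step per column shared by all genes, so length had not been divided out, and they were treated as log2 RPM. What the 1000000 reads comprise is not stated, and 66.7% to 68.6% of them lay on genes. Genes without reads hold 0.9 of the step and were set to 0. The smallest level treated as detectable, 3 reads, was 0.0987 to 0.126 RPM. No 2 libraries agreed within counting error (chi-square per degree of freedom at least 22.3).

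The design had assumed RPKM, and its test was applied to linear RPM instead. The test was limma (version 3.58.1, under R 4.3.3) on log2(RPM + 1) of genes averaging 1 RPM or more (eBayes with trend, no covariate, two-sided, Benjamini-Hochberg over all tested genes), checked on simulated data. Exact Poisson intervals (95%) came from scipy 1.17.1, and figures from matplotlib 3.10.9. Gene models were GENCODE M21, and neighbours and promoters RefSeq tables of GRCm38.p6, the same build as mm10. Members and lists were chosen with earlier results of these data known. Named genes were the 7 members, the 5 nearest measured genes on each side of Casp1, the genes of each list with an unadjusted p under 0.05 or else its largest change, the 5 genes most like Casp1, and cell type markers; 1 gene that this rule names is not reported here. Alternatives were other pseudocounts, filters, scalings and eBayes settings, litter and replicate number as blocks, litter 1 alone, the deposited values unchanged, each library left out and, added after the data were seen, limma voom. Protein sequences were not used here.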

Additional observations from a re-analysis of the deposited data

Results flagged for a closer look

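The genotype difference was compared between litters in 25 named genes, 22 of which could be fitted, and 1 of them had an unadjusted p under 0.05 (limma). The Casp12 change was -0.27 within litter 1 but 1.15 within litter 2, which is 1.42 more on the log2(RPM + 1) scale (unadjusted p 0.0167; adjusted p 0.80, limma with Benjamini-Hochberg over all genes). Such a difference had an unadjusted p under 0.05 in 5.06% of all tested genes, so 1 of 22 is near the background. The litter 2 change of Casp12 rests on control 3, whose 3.0 RPM was the lowest Casp12 level, and on mutant 3, at 7.88 RPM. Gucy1a2, a neighbour of Casp1, was lower in both litter 1 mutants than in both litter 1 controls and higher in the litter 2 mutant than in its control, a difference of 0.92 (unadjusted p 0.0535, limma). The litters went opposite ways by this rule in 18.2% of all tested genes. Litter 2 has 1 library per genotype, so litter and animal cannot be told apart.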

How the results depend on the processing

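The Casp1 change of 1.09, whose sign is fixed by the choice of the gene, ran from 0.88 without mutant 1 to 1.43 with the deposited log2 values unchanged; with a mean of at least 5 RPM Casp1 was not fitted. The Casp4 change ran from 0.19 to 0.82 and that of Il18 from 0.21 to 0.73, with an unadjusted p of 0.0874 or more in each (limma). Casp12, at 0.21, turned to -0.27 in litter 1 alone, and leaving out 1 library at a time gave -0.15 (without control 3) to 0.47. Pycard, at 0.18, likewise ran from -0.064 (without control 2) to 0.37. The Nlrp3 change ran from -0.22 to 0.22. The median changes of the pathway lists changed sign in 1 to 5 of their alternatives, and that of the IL-1 and IL-18 list in 0. The number of genes with an adjusted p under 0.05 (limma, Benjamini-Hochberg) was 0 in all fits except the 1 without control 1, where it was 1, so it ran from 0 to 1 across those fits. Against 152 genes at an unadjusted p under 0.05, there were 344 without a filter, 292 with a litter term, 319 for litter 1 alone and 524 with the replicate block, and it ran from 68 to 325 when 1 library was left out: 325 without control 1, 240 without control 3, 68 without mutant 1 and 261 without mutant 2. For these shifts the cause was not tested. Same-numbered libraries deviated together, across genes, at -0.03, 0.75 and 0.50, so the numbers in the column names were not taken to pair them. Depth limits Nlrp3, Il1b and Casp4 most, with as few as 6 reads in a library.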
